A study of Mus musculus with 12 samples.

Results

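Malat1, Neat1, Meg3, Miat, Tug1 and Six3os1 are long noncoding RNAs, transcripts that are not translated into protein. They were chosen by name as a set of nuclear and neuronal transcripts, and make up 6 of the 52962 genes in the deposited gene table. GENCODE mouse release M21 annotates 46 transcripts for them, and all 6 genes were among the 20267 genes with enough counts to be tested. They were measured by RNA sequencing in 12 libraries of mouse rod photoreceptors from electroporated retinas at postnatal day 8, each library made from 50 to 100 GFP-positive cells picked by hand. The libraries formed 4 groups of 3. The group shRNA mCsnk2a1 received a short hairpin RNA against mouse Csnk2a1, the alpha catalytic subunit of protein kinase CK2, and shRNA Control received the control hairpin. The group pcDNA4c mCsnk2a1 received mouse Csnk2a1 in the expression vector pcDNA4c, and pcDNA4c Control received the control vector. All 4 groups thus held electroporated rods, and the labels give neither strain nor sex nor the promoter behind GFP. The knockdown comparison takes shRNA mCsnk2a1 minus shRNA Control, and the overexpression comparison takes pcDNA4c mCsnk2a1 minus pcDNA4c Control. Where 4 group values are listed without names, they follow the order in which shRNA Control, then shRNA mCsnk2a1, then pcDNA4c Control, then pcDNA4c mCsnk2a1 are shown in the plot of CPM by library.

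Malat1 is an abundant nuclear RNA that gathers in nuclear speckles, the bodies that store splicing factors. Neat1 lies beside it in the genome, and its long form is the scaffold of paraspeckles, nuclear bodies that hold RNA-binding proteins. Malat1 and the long form of Neat1 end without a poly(A) tail of the usual kind. RNase P cleaves them upstream of a tRNA-like element and leaves a triple helix at the 3' end. Meg3 is expressed from the maternal copy of the imprinted Dlk1-Dio3 domain. Miat, also called Gomafu, is a nuclear RNA of neurons that carries repeats resembling the splicing branch point. Tug1 was first described in the developing retina, and Six3os1 is transcribed from the locus of the eye-field homeobox gene Six3.

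Library totals lay between 1608926 and 3567121 estimated counts. Gene levels are given in CPM, counts scaled to library size with TMM factors (trimmed mean of M-values), or in TPM, which also corrects for length. Csnk2a1 itself read 66.9, 57.2 and 8.51 CPM in shRNA Control, against 12.0, 22.2 and 36.0 CPM with its hairpin (shRNA mCsnk2a1). With the vectors it read 86.6, 25.0 and 28.3 CPM in pcDNA4c Control, against 49.9, 145 and 122 CPM in pcDNA4c mCsnk2a1. The targeted gene therefore overlapped between groups in both arms, and neither edgeR log2 difference passed (-0.92 with adjusted p = 0.905, and 1.18 with adjusted p = 0.801). The summed level of 21 rod genes was 8700 CPM or more in each of the 12 libraries, whereas the summed level of 15 microglia genes was between 2711 and 3335 CPM in pcDNA4c Control and at most 105 CPM in the other groups.

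Per length, Malat1 stood far above the other members. Its mean was 1434 TPM over 12 libraries, rank 69 of the 39065 genes above 0 and rank 3 among 7965 long noncoding RNAs, behind Rmrp (3222 TPM) and Gm42418 (2769 TPM). Meg3 followed with 16.0 TPM and rank 3835, Tug1 with 8.81 TPM, Six3os1 with 7.79 TPM, Miat with 5.06 TPM and Neat1 with 1.90 TPM and rank 18210. The 6 genes took between 0.398% and 1.47% of all counts in a library, and Malat1 alone made up between 90.7% and 96.8% of that sum. From the lowest to the highest library, TPM spanned 3.37-fold for Malat1, 7.21-fold for Tug1, 10.9-fold for Meg3, 12.4-fold for Six3os1, 13.8-fold for Neat1 and 165-fold for Miat. Libraries of the same group were themselves unlike for the rarer members, as the plot of CPM by library shows.

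**Figure D1:**
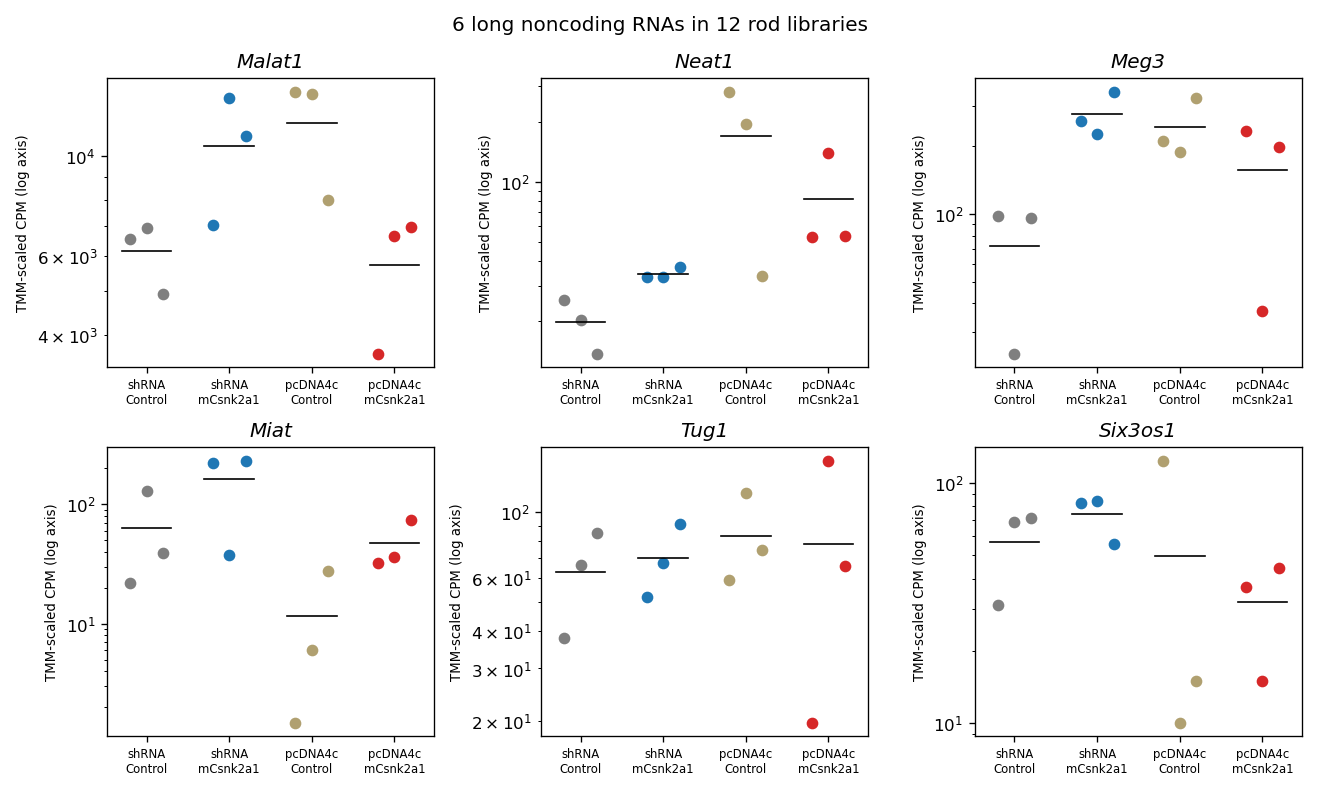
Level of each long noncoding RNA in each library, in TMM-scaled CPM on a log axis, with the 4 groups on the horizontal axis. Points are libraries and bars are group means; the 3 Malat1 points of shRNA mCsnk2a1 lie above those of shRNA Control, and those of pcDNA4c mCsnk2a1 lie below those of pcDNA4c Control.

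Malat1 is annotated on the minus strand at chr19:5795690-5802672 (GRCm38). Of its 4 annotated transcripts 3 had a value above 0, and a pair of them carried nearly all of it. Malat1-201 is the unspliced RNA of 6983 bases. Malat1-203 is a spliced transcript of 485 bases that joins an exon at chr19:5802238-5802671 to one at chr19:5801916-5801966 and skips an intron of 271 bases. The pair is shown because so little sequence separates it: of the 455 words of 31 bases in Malat1-203, 26 do not occur in Malat1-201. The sequences are from GENCODE M21, and capitals mark the bases of the second exon.
Malat1-203: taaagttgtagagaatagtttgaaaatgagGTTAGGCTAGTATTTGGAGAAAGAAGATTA
Malat1-201: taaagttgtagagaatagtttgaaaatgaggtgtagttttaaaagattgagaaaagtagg
The first 30 bases are shared, and Malat1-201 reads on into the intron.

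At the gene level, Malat1 read 6560, 6924 and 4940 CPM in shRNA Control, whereas shRNA mCsnk2a1 libraries read 7040, 13516 and 11075 CPM. The 3 knockdown libraries all exceeded the 3 controls, although the lowest of them exceeded the highest control by little. In the other arm it read 13948, 13758 and 7988 CPM in pcDNA4c Control, whereas pcDNA4c mCsnk2a1 libraries read 3623, 6646 and 6958 CPM. Here each library given Csnk2a1 lay below each control. By group mean the order was pcDNA4c Control (11898 ± 3388 CPM), shRNA mCsnk2a1 (10544 ± 3271), shRNA Control (6141 ± 1056) and pcDNA4c mCsnk2a1 (5742 ± 1842; SD, n = 3 each). The upper pair of groups overlapped, as did the lower pair, and no library of the upper pair lay below one of the lower pair. In gene TPM the separation was lost in both arms: Malat1 read 1409, 1514 and 1011 TPM in shRNA Control against 1089, 2270 and 1805 TPM in shRNA mCsnk2a1. It read 1925, 1903 and 1177 TPM in pcDNA4c Control against 674, 1183 and 1244 TPM in pcDNA4c mCsnk2a1.

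The knockdown difference of Malat1 was 0.78 as a log2 value (SE 0.26), with adjusted p = 0.598 in edgeR's quasi-likelihood test. For overexpression it was -1.05 (SE 0.26), with adjusted p = 0.296 in edgeR. Neither passed the threshold of 0.05 over all genes, and Malat1 ranked 224 and 54 by p among the 20267 genes. Of all genes, 0.0% passed in the knockdown comparison (0 genes by edgeR, against 1687 with an unadjusted p under 0.05, 183 called by DESeq2 and 2 by limma voom) and 0.0987% in the overexpression comparison (20 genes). The overexpression effect minus the knockdown effect, which uses the same 12 libraries, was -1.83 (SE 0.37) with adjusted p = 0.209 in edgeR, rank 9 of 20267 genes by p. In that comparison 0.0197% of genes passed.

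The deposited gene counts turned out to be TPM multiplied by a constant per gene and a constant per library, so that in them a transcript counts by its TPM and not by its length. Malat1-203 held between 48.8% and 77.2% of the gene's TPM, but Malat1-201 held between 80.9% and 93.8% once TPM was multiplied by transcript length, which approximates its share of reads. Malat1-201 read 419, 345 and 308 TPM in shRNA Control against 449, 702 and 589 TPM in shRNA mCsnk2a1. It read 789, 709 and 575 TPM in pcDNA4c Control against 345, 320 and 364 TPM in pcDNA4c mCsnk2a1. The full-length RNA thus separated the groups in both arms. Malat1-203 overlapped in both, at 947, 1170 and 703 TPM against 640, 1569 and 1216 TPM for the hairpins and 1136, 1193 and 602 TPM against 329, 863 and 880 TPM for the vectors. Tested on log2(TPM + 1) with limma over 38584 transcripts, Malat1-201 differed by 0.68 (SE 0.30, adjusted p = 0.642) in the knockdown and by -0.999 (SE 0.30, adjusted p = 0.351) in the overexpression comparison, so neither passed. No transcript of any member passed, while 0.013% and 0.14% of all transcripts did.

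**Figure D2:**
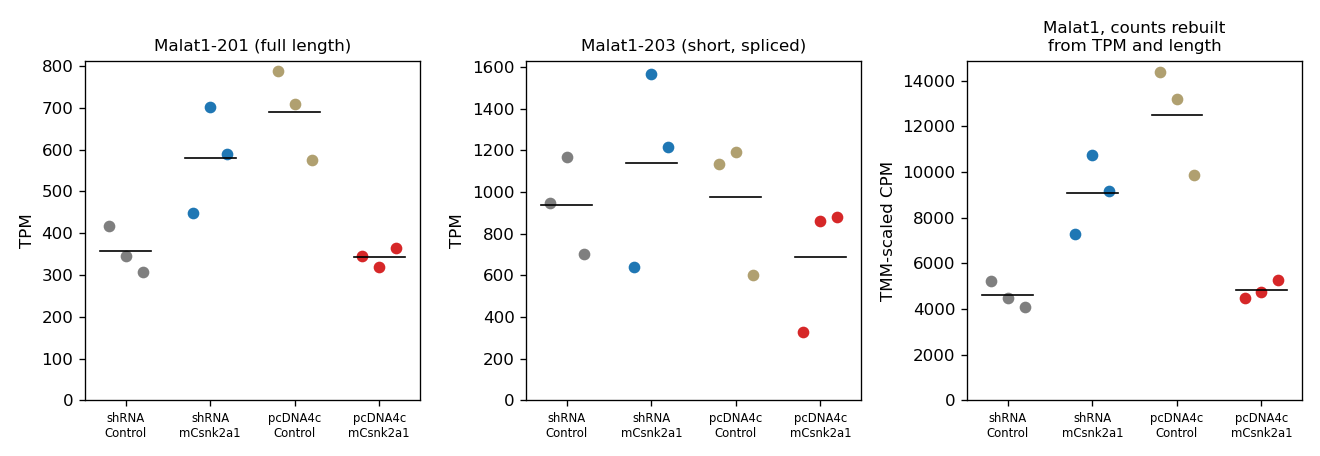
Malat1 by transcript and library: TPM of the full-length Malat1-201, TPM of the short Malat1-203, and TMM-scaled CPM after gene counts were rebuilt from TPM and transcript length. Points are libraries, bars are group means and axes start at 0; Malat1-201 and the rebuilt gene level separate construct from control in both arms, and Malat1-203 does not.

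With gene counts rebuilt as TPM times transcript length, an alternative chosen after these values had been seen, Malat1 passed in all comparisons. The rebuilt levels were 5215, 4492 and 4113 CPM in shRNA Control, while shRNA mCsnk2a1 gave 7278, 10750 and 9189 CPM. They were 14369, 13199 and 9871 CPM in pcDNA4c Control, while pcDNA4c mCsnk2a1 gave 4469, 4738 and 5269 CPM. On this scale Malat1 rose by 0.98 (log2) in the knockdown libraries with adjusted p = 0.0214 in edgeR, and fell by 1.37 in the overexpression libraries with adjusted p = 5.226e-05 in edgeR. Of all genes, 0.0395% and 0.311% passed there. Malat1 also passed in both arms when no filter on low counts was set, with differences of 0.77 and -1.03. It passed in the overexpression comparison without pcDNA4c Control 3, the control library with the least Malat1 (-1.25, adjusted p = 0.0389). In none of the 16 alternatives of either arm did its direction change, and the values ranged from 0.56 to 1.02 and from -1.37 to -0.76.

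**Figure D3:**
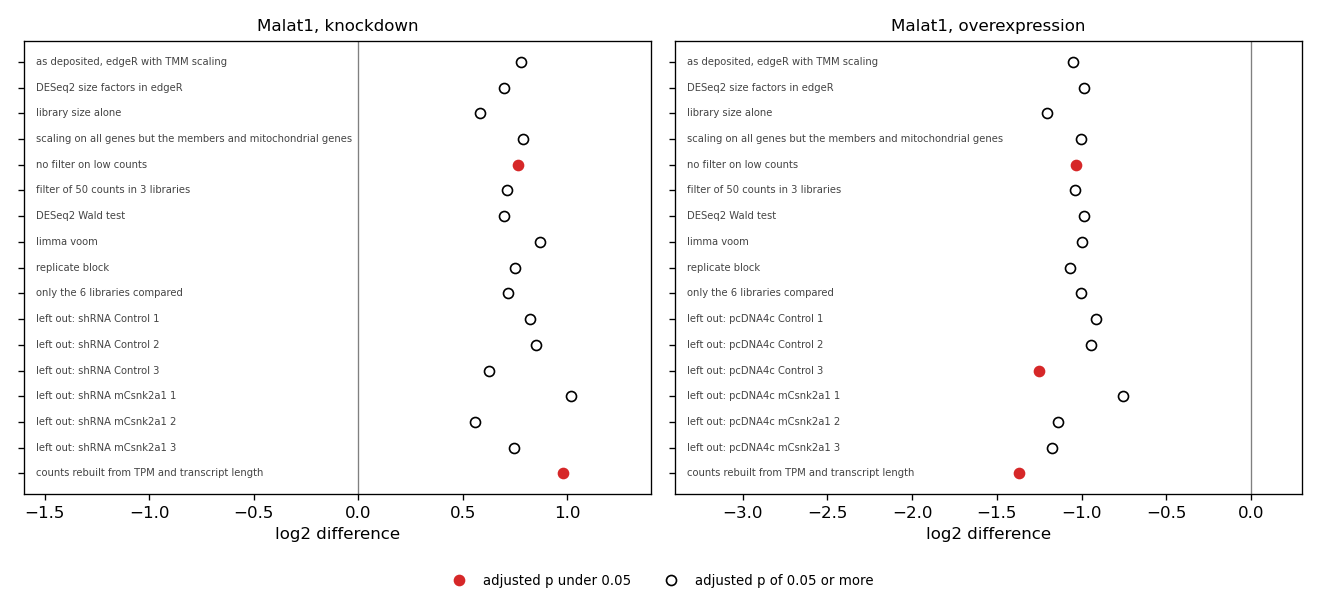
Log2 difference of Malat1 in the knockdown comparison (left) and the overexpression comparison (right) under each processing setting, which is named beside its point. Filled red points have an adjusted p under 0.05; every left-hand point lies above 0 and every right-hand point below 0.

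Markers of other cells and signs of library composition also differed between the groups, some of them along with Malat1 and others not. Of the 15 microglia genes none was at 0 throughout pcDNA4c Control, and 3, 5 and 8 were at 0 throughout shRNA Control, shRNA mCsnk2a1 and pcDNA4c mCsnk2a1. Their sums in the last 3 groups were 62.6 to 105, 24.4 to 47.2 and 64.6 to 95.7 CPM. Within pcDNA4c Control, the libraries with 13948, 13758 and 7988 CPM of Malat1 had microglia sums of 3145, 3335 and 2711 CPM. The 11 Müller glia genes, none of them at 0 throughout a group, summed to 507 to 885 CPM with the control hairpin, 1191 to 1603 with the Csnk2a1 hairpin, 1212 to 1679 with the control vector and 490 to 778 with the Csnk2a1 vector. The 11 cone genes summed to 206 to 229, 351 to 615, 257 to 334 and 138 to 163 CPM in the same order of groups, with 1 of them at 0 throughout shRNA Control and 2 throughout pcDNA4c mCsnk2a1. The pair of groups that was high in Malat1 was thus wholly above the other pair in the Müller glia and cone sums. In the microglia sums only pcDNA4c Control was above, and shRNA mCsnk2a1 was the lowest group. The 10 bipolar genes ran the other way in the vector arm, at 515 to 665, 805 to 1898, 156 to 281 and 900 to 1005 CPM, with 1 at 0 throughout pcDNA4c Control. The 13 amacrine and horizontal genes ran the other way in the hairpin arm, at 228 to 244, 154 to 220, 204 to 221 and 209 to 734 CPM. The 9 ganglion cell genes overlapped in both arms, at 76.2 to 135, 125 to 230, 81.5 to 97.5 and 62.2 to 203 CPM. Without Apoe, which microglia express as well, the 4 Müller glia ranges were 453 to 753, 949 to 1198, 311 to 536 and 417 to 671 CPM, which overlapped between the vector groups and not between the hairpin groups. Taken gene by gene, 7 of the 11 Müller glia genes had an overexpression difference above 0, with a median of 0.71. Summed levels of 21 rod genes were 8927 to 11790, 17560 to 21459, 9279 to 11344 and 8700 to 18773 CPM by group. Mitochondrial genes took 8.51%, 10.8%, 8.04% and 11.3% of counts in the same order of groups, and the library totals were higher in the libraries given the Csnk2a1 constructs. The part of any of these in the Malat1 values was not tested. In bulk samples of picked cells, fewer cells of a type and less RNA per cell cannot be told apart.

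Neat1 lies on the minus strand at chr19:5824708-5845478, with 22036 bases between it and Malat1. Only Neat1-201, the long form of 20771 bases that spans the gene, and Neat1-202, of 3004 bases, had values above 0. The shorter form removes an intron of 166 bases near the 5' end, and 29 of its 2974 words of 31 bases are absent from the long form. The junction is shown from GENCODE M21, with the second exon in capitals.
Neat1-202: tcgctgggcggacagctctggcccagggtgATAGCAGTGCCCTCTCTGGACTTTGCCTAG
Neat1-201: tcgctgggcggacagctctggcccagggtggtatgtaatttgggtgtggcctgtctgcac
As for Malat1, the pair shares the bases before the junction and differs after it.

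Neat1 was scarce in the hairpin libraries. It read 25.4, 20.2 and 13.6 CPM in shRNA Control, against 33.1, 33.2 and 37.4 CPM in shRNA mCsnk2a1, so the groups did not overlap in CPM. They did overlap on the rebuilt scale, from 15.2 to 27.5 against 21.4 to 39.4 CPM, and in gene TPM, from 0.449 to 0.867 against 0.810 to 0.968 TPM. In CPM, Neat1, Malat1 and Meg3 made 3 of 6 members with all knockdown libraries above all controls, whereas 5.61% of all genes lay wholly above, 6.68% wholly below and 12.3% either. The count was 2 of 6 on the rebuilt scale (Malat1 and Meg3) and 1 of 6 in gene TPM (Meg3). In the vector libraries Neat1 read 283, 193 and 33.8 CPM in pcDNA4c Control, against 52.9, 138 and 53.4 CPM in pcDNA4c mCsnk2a1. Those groups overlapped, and pcDNA4c Control 3 lay closer to the hairpin libraries than to its own group. The log2 differences were 0.81 (SE 0.75, adjusted p = 0.896) and -1.06 (SE 0.75, adjusted p = 0.765) in edgeR's test, and neither passed. Over the alternatives the overexpression difference of Neat1 ran from -1.65 to -0.47. That library, pcDNA4c Control 3, had a microglia sum of 2711 CPM, against 3145 and 3335 CPM in the rest of its group.

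Of the Neat1 differences computed, the largest was between the control groups, neither of which carries Csnk2a1. Taking shRNA Control minus pcDNA4c Control gave -3.10 (SE 0.80, adjusted p = 0.593, edgeR), and DESeq2 called it at -2.98 (adjusted p = 0.0278). Neat1-202 was at 0 TPM in the 3 shRNA Control libraries and at 2.37, 2.92 and 0 TPM in pcDNA4c Control. It also appeared at 0.152 and 0.394 TPM in shRNA mCsnk2a1 1 and 2, and at 3.75 and 0.401 TPM in pcDNA4c mCsnk2a1 2 and 3. Neat1-201 was above 0 in every library, from 0.150 TPM in pcDNA4c mCsnk2a1 2 to 3.81 TPM in pcDNA4c Control 1. In pcDNA4c mCsnk2a1 2 the shorter form held 96.2% of the gene's TPM.

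Genes for the proteins of paraspeckles gave no call. None of 18 tested paraspeckle genes passed in either arm, with 11 above 0 and a median log2 difference of 0.32 for the knockdown and 12 above 0 and a median of 0.36 for overexpression. The medians over all genes were -0.03 and -0.16. Smarca4, a chromatin remodelling ATPase, averaged 153 CPM in pcDNA4c Control and 355 CPM in pcDNA4c mCsnk2a1 (log2 difference 1.21, SE 0.42, adjusted p = 0.568, edgeR). Hnrnpa1, a splicing repressor, averaged 157 and 391 CPM in those groups (1.31, SE 0.47, adjusted p = 0.568, edgeR). The most abundant member of the list, Hnrnpk, averaged 422 and 639 CPM there, with a difference of 0.60 that did not pass.

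Nuclear speckle genes, which encode the splicing factors of the bodies where Malat1 gathers, gave no call in either arm. Of 20 tested, 16 had a knockdown difference above 0, with a median of 0.47. For overexpression 11 of 20 were above 0 with a median of 0.03. Between the control groups 18 of 20 lay below 0, with a median of -0.41 against 0.00 over all genes, and that comparison shares the shRNA Control libraries with the knockdown comparison. Sf3b1, a core component of the U2 spliceosomal particle, averaged 161 CPM in shRNA Control and 397 CPM in shRNA mCsnk2a1 (1.30, SE 0.56, adjusted p = 0.598, edgeR). The latter libraries read 203, 236 and 752 CPM, so shRNA mCsnk2a1 3 carried much of that mean. Clk1, a kinase of splicing factors, averaged 173 CPM in pcDNA4c Control and 65.6 CPM in pcDNA4c mCsnk2a1 (-1.40, SE 0.61, adjusted p = 0.568, edgeR). Son, a large speckle scaffold, averaged 513, 703, 1033 and 756 CPM in the 4 groups.

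Of 10 tested genes for forming the 3' ends of Malat1 and Neat1, none passed in either arm. Rpph1, the RNA component of RNase P, averaged 3093 CPM in shRNA Control and 4414 CPM in shRNA mCsnk2a1 (0.51, SE 0.19, adjusted p = 0.598, edgeR). It averaged 2797 and 2826 CPM in the vector groups, a difference of 0.02. Nudt21, a subunit of the cleavage factor that favours the shorter Neat1 form, averaged 35.6 and 98.6 CPM in the hairpin groups and 66.7 and 50.5 CPM in the vector groups, with neither difference passing.

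Meg3 lies on the plus strand at chr12:109541001-109571726. It read 97.5, 23.8 and 95.3 CPM in shRNA Control, against 257, 225 and 348 CPM in shRNA mCsnk2a1, so the lowest knockdown library was above the highest control. With the vectors it read 210, 188 and 326 CPM in pcDNA4c Control, against 232, 37.0 and 198 CPM in pcDNA4c mCsnk2a1, which overlapped. The knockdown difference of 1.94 (SE 0.65, adjusted p = 0.598, edgeR) was not called, nor was the overexpression difference of -0.63 (SE 0.63, adjusted p = 0.910, edgeR), which ran from -1.06 to -0.15 over the alternatives. Rebuilt from TPM and length, the knockdown difference was 1.07. On that scale the hairpin groups nearly met, with 101.5 CPM in the highest control library and 101.6 CPM in the lowest knockdown library.

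Which Meg3 transcripts were seen changed from library to library. Of 11 annotated transcripts 9 had a value above 0, and only Meg3-206 (5971 bases) and Meg3-209 (14548 bases) did so in all 12 libraries. Meg3-209 lay between 0.839 and 3.99 TPM, and its means were 1.60, 2.49, 2.23 and 2.11 TPM in the 4 groups. Meg3-205, of 1498 bases, read 1.06, 0 and 0.410 TPM in shRNA Control, against 7.41, 6.02 and 2.98 TPM in shRNA mCsnk2a1. Its share of Meg3 TPM was 4.56% ± 4.85 and 25.5% ± 13.6 in those groups (SD, n = 3; two-sided exact permutation p = 0.1, the smallest that 3 against 3 allows, and 0.6 adjusted over 12 such tests).

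The rest of the Dlk1-Dio3 domain was mostly low. Of 8 tested genes of the domain and its borders none passed, with medians of 0.49 and -0.41 for the knockdown and overexpression differences. Dlk1, a Notch-related ligand expressed from the paternal copy and the nearest tested gene on one side, averaged between 3.49 and 5.04 CPM by group. Rtl1, the retrotransposon-derived gene on the other side, averaged between 2.87 and 11.9 CPM. Wdr25 averaged 0.577 CPM in shRNA Control and 29.6 CPM in shRNA mCsnk2a1, with an adjusted p of 0.598 in edgeR. The latter libraries read 42.1, 0 and 46.7 CPM, so the groups overlapped. Yy1, a zinc-finger transcription factor, averaged 16.6, 46.3, 96.3 and 38.8 CPM in the 4 groups, and Begain, a postsynaptic density protein, between 0.185 and 24.1 CPM.

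Miat is on the minus strand at chr5:112213228-112229395. Its main transcript Miat-201, of 8758 bases, holds 6 copies of TACTAAC, the branch point sequence of yeast introns that names its repeat. Only 5 of 141767 annotated transcripts, from 4 genes, hold 6 or more copies on the transcribed strand. A single copy is common, found in 3.60% of all transcripts and in 15.7% of those of 5000 bases or more. The stretches below hold 2 and 3 of the copies, in capitals, at chr5:112217314-112217355 and chr5:112216757-112216807, both written along the minus strand from GENCODE M21.
Miat-201 repeat copies 2 and 3: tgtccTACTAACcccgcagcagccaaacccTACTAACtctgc
Miat-201 repeat copies 4 to 6: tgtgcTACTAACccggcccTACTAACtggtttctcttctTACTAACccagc
Among the other members, Neat1 holds 1 copy at most and the remaining 4 hold none.

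Miat was the most variable member. It read 1.48, 6.00 and 27.7 CPM in pcDNA4c Control, against 31.9, 36.0 and 73.2 CPM in pcDNA4c mCsnk2a1, so every library given Csnk2a1 exceeded every control, the closest pair by little. With Malat1 below its controls, this made 2 of 6 members without overlap in the vector arm, where 3.73% of all genes lay wholly above, 11.8% wholly below and 15.5% either. On the rebuilt scale only Malat1 and in gene TPM only Miat kept apart, 1 of 6 each. The 10 bipolar genes moved with Miat, summing to 156 to 281 CPM in pcDNA4c Control and 900 to 1005 CPM in pcDNA4c mCsnk2a1, and their part in its values was not tested. The log2 difference was 2.01 (SE 0.98, adjusted p = 0.569, edgeR). In the hairpin arm Miat read 21.8, 127 and 39.1 CPM against 220, 37.5 and 231 CPM, which overlapped (1.37, SE 0.95, adjusted p = 0.778, edgeR). Over the alternatives the Miat differences ran from 0.42 to 2.40 for the knockdown and from 1.48 to 3.66 for overexpression. The estimated counts behind the low end were 3.40 and 12.2 in pcDNA4c Control 1 and 2, so counting error alone is wide there. On the rebuilt scale the hairpin difference was 0.42, and pcDNA4c mCsnk2a1 1 read 9.24 CPM, inside the control range.

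In the libraries with the highest Miat levels, short transcripts held most of its TPM. Miat-202, of 747 bases, was at 9.35 TPM in shRNA Control 2, 12.1 TPM in shRNA mCsnk2a1 1, 3.12 TPM in shRNA mCsnk2a1 3 and 1.97 TPM in pcDNA4c mCsnk2a1 1, and at 0 in the other libraries. Miat-206, of 357 bases, was at 9.90 TPM in shRNA mCsnk2a1 3 and at 0 elsewhere. The long Miat-201 was above 0 in all 12 libraries, but only at 0.0020 TPM in shRNA mCsnk2a1 3. In that library the still longer Miat-205, of 9163 bases and at 0 elsewhere, read 2.35 TPM and held 78.6% of Miat TPM weighted by length. Miat-201 averaged 2.39 ± 0.766, 1.43 ± 1.31, 0.701 ± 0.846 and 2.79 ± 2.45 TPM in the 4 groups (SD, n = 3), with no called difference.

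The genes of the 4 proteins known to bind Miat or its repeat were each higher on average in shRNA mCsnk2a1 than in shRNA Control, with a median difference of 1.204, and none passed. All 4 were also above 0 for overexpression, with a median of 0.39 and none passing. Between the controls, a comparison that shares the shRNA Control libraries, all 4 lay below 0, with a median of -0.39. Qk, an RNA-binding protein of splicing, read 69.5, 27.4 and 42.5 CPM in shRNA Control, against 104, 396 and 97.0 CPM in shRNA mCsnk2a1 (2.10, SE 0.74, adjusted p = 0.598, edgeR). Its groups did not overlap, and 1 library held the highest level by far. Sf1, the branch point binding protein, averaged 59.6 and 142 CPM (1.25, SE 0.75), and Celf3, a neuronal splicing regulator, 118 and 264 CPM (1.16, SE 0.70). In shRNA mCsnk2a1 the libraries read 72.9, 279 and 73.8 CPM for Sf1 and 40.9, 303 and 448 CPM for Celf3.

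At the gene level, Tug1 did not separate any pair of groups. It lies on the minus strand at chr11:3639785-3649673 and read 37.9, 66.7 and 85.1 CPM in shRNA Control, against 51.8, 67.4 and 91.3 CPM in shRNA mCsnk2a1. It read 59.0, 115 and 74.8 CPM in pcDNA4c Control, against 19.7, 148 and 66.1 CPM in pcDNA4c mCsnk2a1. The differences were 0.15 (SE 0.73) and -0.09 (SE 0.73), both with adjusted p = 1.0 in edgeR. Each changed sign under some alternatives, so no direction is given. All 8 annotated transcripts had a value above 0 somewhere. Tug1-202, of 4720 bases, held 15.3% ± 13.2 of Tug1 TPM with the control vector, against 68.3% ± 24.7 with the Csnk2a1 vector (SD, n = 3; exact permutation p = 0.1, adjusted 0.6). In TPM it read 0.536, 0.682 and 2.33 against 2.09, 15.4 and 3.284, which overlapped.

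Tug1 shares its promoter region with Morc2a, a chromatin-compacting ATPase on the other strand, and the annotations overlap by 483 bases. Over the 12 libraries their log2 CPM had a Pearson r of 0.75. Morc2a averaged 98.4, 36.8, 88.0 and 243 CPM in the 4 groups, and neither difference passed. The kit keeps strand, but no source used here says whether the quantification did, so reads in the overlap may be shared. Of 10 tested genes in the list of Morc2a, subunits and cofactors of the Polycomb complex PRC2, and Ppargc1a, a reported Tug1 target, none passed. Suz12, a core PRC2 subunit, averaged 194 and 69.9 CPM in the hairpin groups (-1.47, SE 0.84, adjusted p = 0.660, edgeR). Its libraries read 152, 408 and 22.1 CPM in shRNA Control, against 22.9, 40.0 and 147 CPM in shRNA mCsnk2a1, which overlapped. Jarid2, a PRC2 cofactor, averaged 160, 287, 432 and 386 CPM in the 4 groups, and Mtf2, another, 50.1 and 157 CPM in the vector groups (1.65, SE 1.01). For Mtf2 the pcDNA4c mCsnk2a1 libraries read 13.6, 406 and 51.4 CPM, so pcDNA4c mCsnk2a1 2 carried the higher mean.

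Six3os1 is on the minus strand at chr17:85600651-85618398 and overlaps Six3, on the other strand, by 4791 bases. It read 31.1, 68.5 and 71.5 CPM in shRNA Control, against 82.6, 84.0 and 56.0 CPM in shRNA mCsnk2a1. With the vectors it read 124, 9.999 and 14.96 CPM in pcDNA4c Control, against 36.7, 15.04 and 44.3 CPM in pcDNA4c mCsnk2a1. The groups overlapped in both arms. The differences were 0.38 (SE 0.91) and -0.63 (SE 0.91), far from passing, and the latter was 1.36 without pcDNA4c Control 1, the library with the highest value. Six3os1-209, a retained-intron transcript of 4094 bases, read 4.80, 4.14 and 4.38 TPM in shRNA Control, with 0, 0 and 2.62 TPM in shRNA mCsnk2a1 and 0, 0 and 0.375 TPM in pcDNA4c Control. Its knockdown difference was -1.82 on the log2(TPM + 1) scale (SE 0.67, adjusted p = 0.638, limma). Retained-intron transcripts as a class took 3.58% ± 0.115, 2.93% ± 0.352, 2.53% ± 0.0236 and 3.07% ± 0.129 of TPM in the 4 groups (SD, n = 3), and their part in that value was not tested.

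Six3 averaged between 20.4 and 26.9 CPM by group and had a Pearson r of -0.16 with Six3os1 over 12 libraries. Eya1, a partner of Six3-family factors, averaged 1.51 and 73.2 CPM in the hairpin groups and 3.85 and 0 CPM in the vector groups, with adjusted p values of 0.598 and 0.568 in edgeR. Its shRNA mCsnk2a1 libraries read 15.4, 194 and 9.63 CPM, so shRNA mCsnk2a1 2 carried most of that mean.

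Between the control groups, Malat1, Neat1 and Meg3 were lower in CPM with the hairpin: no shRNA Control library reached the lowest pcDNA4c Control library. That was 3 of 6 members, whereas 8.56% of all genes lay wholly below, 5.13% wholly above and 13.7% either. The rebuilt scale gave the same 3, with Six3os1 wholly above, whereas in gene TPM only Meg3 lay wholly below and Miat wholly above, and Malat1 and Neat1 overlapped. The knockdown comparison uses the same shRNA Control libraries and the overexpression comparison the same pcDNA4c Control libraries, so these are not separate observations. The differences between the controls were -0.95 (SE 0.26) for Malat1, -1.74 (SE 0.64) for Meg3 and 2.42 (SE 1.00) for Miat, none passing in edgeR where 0.0691% of genes did. For Malat1 the gap between the control groups (-0.95) lay between the sizes of the knockdown (0.78) and overexpression (-1.05) differences. With counts rebuilt from TPM and length, Malat1 differed by -1.44 between the controls (adjusted p = 2.57e-05, edgeR; 0.365% of genes passed) and by -2.35 between the arms (adjusted p = 6.808e-06, edgeR; 0.39% passed). The difference between the arms was -2.57 for Meg3 (SE 0.90, adjusted p = 0.493, edgeR) and -1.86 for Neat1 (SE 1.06, adjusted p = 0.663, edgeR).

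**Figure D4:**
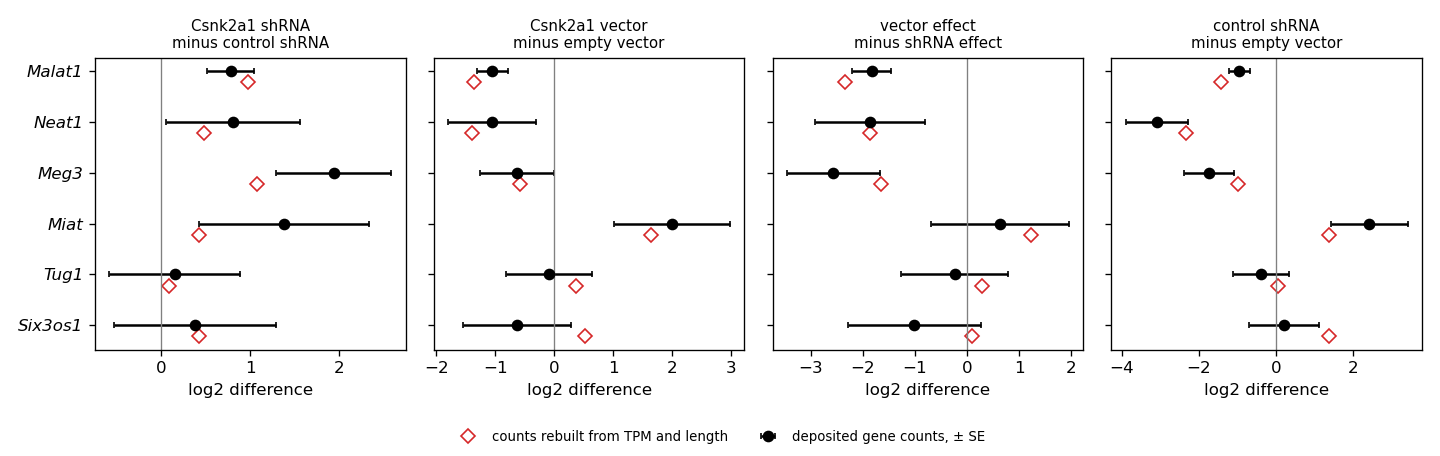
Log2 differences of the long noncoding RNAs in 4 comparisons. Black points are edgeR estimates from the deposited gene counts with bars of 1 SE, and red diamonds are estimates from counts rebuilt from TPM and transcript length; Malat1 keeps its sign in all 4, whereas Tug1 and Six3os1 change sign between the scales for overexpression.

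The share of the leading transcript, that with the highest mean TPM, was compared for 6 genes in 2 arms by two-sided exact permutation tests. The lowest p was 0.1, for Meg3-205 in the knockdown and Tug1-202 in the overexpression comparison, and no adjusted p was under 0.6. Malat1-203 held 71.3% ± 5.23, 65.1% ± 5.52, 57.6% ± 5.91 and 64.2% ± 13.3 of Malat1 TPM in the 4 groups (SD, n = 3).

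**Figure D5:**
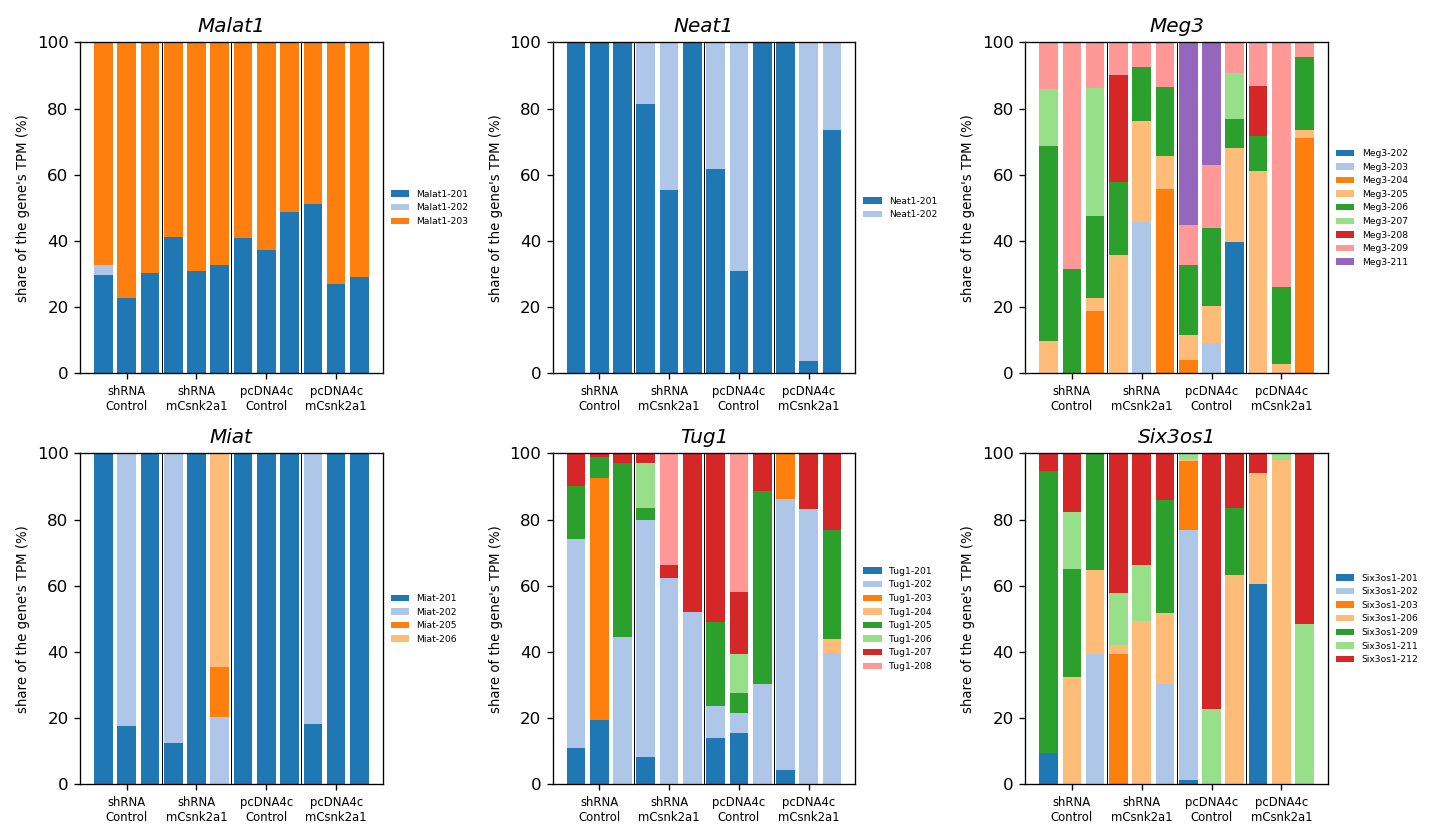
Share of each gene's TPM held by its transcripts in each of the 12 libraries, as stacked bars grouped by treatment and separated by vertical lines. Malat1 is divided between Malat1-201 and Malat1-203 in all libraries, while the bars of Meg3, Tug1 and Six3os1 change make-up between libraries of the same group.

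Other long noncoding RNAs gave a background for these values. None of 36 tested passed in either arm, with medians of 0.07 and 0.04. Kcnq1ot1, the imprinted antisense RNA of Kcnq1, averaged 1070, 837, 1329 and 944 CPM in the 4 groups and was not called in either arm. Its mean was lower with each Csnk2a1 construct than with its control, but the groups overlapped in both arms. In shRNA mCsnk2a1 1 (1107 CPM) and pcDNA4c mCsnk2a1 1 (1509 CPM) it exceeded every control library of the arm. Xist, the RNA of the inactive X chromosome, averaged 350 and 170 CPM in the hairpin groups (-1.04, SE 0.44, adjusted p = 0.598, edgeR). Lncpint averaged 12.6 CPM in pcDNA4c Control and 0 in pcDNA4c mCsnk2a1, with an adjusted p of 0.568 in edgeR. Transcripts of the lincRNA class without the members took 2.95% ± 0.0187, 1.87% ± 0.164, 1.81% ± 0.161 and 2.06% ± 0.273 of TPM in the 4 groups (SD, n = 3). Malat1 was low in shRNA Control (mean 6141 CPM) and pcDNA4c mCsnk2a1 (5742 CPM), the groups with the higher mean shares. By library, the hairpin groups did not overlap in this share, at 2.93% to 2.96% and 1.73% to 2.05%. The vector groups did, at 1.67% to 1.99% in pcDNA4c Control and 1.78% to 2.33% in pcDNA4c mCsnk2a1. The part of this share in the Malat1 values was not tested.

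Correlations between members were weak. Over 12 libraries and 15 pairs, no permutation p of a Pearson or Spearman correlation of log2 CPM was under 0.05 after adjustment. The lowest was for Neat1 and Miat, with r = -0.68 (permutation p = 0.0155, adjusted 0.232; Spearman rank correlation -0.48, permutation p = 0.12), which came to -0.10 without the 2 libraries farthest from the median of Neat1. Malat1 and Neat1, neighbours on the chromosome, had r = 0.48 (permutation p = 0.111) and a Spearman rank correlation of 0.49, with r = 0.63 for deviations from the group means and -0.0047 without the 2 farthest libraries.

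The genes most like each member were ranked by Pearson r of log2 CPM over the 12 libraries among 8998 genes with a mean of 20 CPM or more. Nearest to Malat1 were Rnu3b4, Rnu3b2 and Rnu3b3, copies of the U3 small nucleolar RNA that have identical values and so count as 1, with r = 0.87. Nearest to Neat1 was Rlf (r = 0.90), a zinc-finger gene, followed by Fam135a and Spast. Meg3 was nearest to Fnta (r = 0.95), the farnesyltransferase alpha subunit, then to Cetn3 and Mief1. Miat was nearest to Myh14 (r = 0.87), a nonmuscle myosin, then to a pair of entries for Ip6k2. Tug1 was nearest to Gabpa (r = 0.91), an ETS transcription factor, then to Ostc and Kmt2c, and Six3os1 to Nhs (r = 0.85), then to Tuba1b and AC149294.1. These values describe 12 libraries and carry no test.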

How the data were processed

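Tools named in the submitters' processing notes are kallisto 0.45.0 and edgeR 3.28, and the build is mm10. The deposited gene table holds estimated counts, which need not be whole, and the deposited transcript table holds TPM. Another deposited table, a scaled signal in CPM units, gave the names, positions, strands and biotypes of genes, and its signal values were not used. Over 1910 genes whose transcripts all matched, the authors' gene values equalled summed TPM times a constant per gene and per library. Of the deposited genes 98.0% and of the transcripts 97.9% matched GENCODE M21 (GRCm38), which gave transcript names, lengths, exon positions and sequences.

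Estimated counts were rounded and fitted in edgeR 4.0.16 under R 4.3.3 (filterByExpr with a minimum count of 10, TMM, 1 quasi-likelihood fit of 12 libraries in 4 groups, Benjamini-Hochberg adjustment over 20267 genes, threshold 0.05). The SE is the log2 difference divided by the square root of the F statistic. Transcripts at 1 TPM or more in 3 libraries were tested with limma 3.58.1 on log2(TPM + 1), a scale that understates changes of low transcripts. DESeq2 1.42.0 and limma voom were alternatives. The biological coefficient of variation was 1.26. Intervals of low counts cover counting error only, since PCR copies carry no molecular identifiers. Labels call the 3 samples of a group independent but name no animals, so p-values reflect only how these samples vary, which may be technical.

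The members, gene lists and tests were chosen with earlier results of these data known. Named genes are the members, their transcripts with a mean of 1 TPM in a group, neighbours, the nearest 3 genes by correlation, and, of each list, those passing, the 2 with the smallest p and the 1 with the highest mean. The edgeR fit and the limma fit on log2(value + 1) were run on simulated data, for the knockdown comparison only. The other comparisons and the alternative fits were not simulated. The count over the list of the Six3 locus and its partners is not reported here.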

Additional observations from a re-analysis of the deposited data

Results flagged for a closer look

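The effect of the Csnk2a1 vector on Malat1 and the effect of the Csnk2a1 hairpin on it had opposite signs, and in CPM all libraries of each construct lay on opposite sides of their controls. In gene TPM the groups overlapped in both arms. The difference between the effects was -1.83 on the log2 scale for the gene (adjusted p = 0.209, edgeR). For the full-length transcript Malat1-201 it was -1.68 on the log2(TPM + 1) scale (adjusted p = 0.366, limma). Both were tested in the joint fits and neither passed over all genes or transcripts.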

How the results depend on the processing

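Malat1 kept its direction in all 4 comparisons under every alternative run, and Neat1 and Meg3 did so too. Besides the calls given in the report, Malat1 passed with no filter on low counts between the arms (-1.80) and between the controls (-0.94), and passed between the arms without shRNA mCsnk2a1 1 (-2.03, adjusted p = 0.017, edgeR) and without pcDNA4c Control 3 (-2.01, adjusted p = 0.0121, edgeR). Replicate numbers did not pair the samples: deviations from group means of same-numbered libraries correlated between -0.04 and 0.04. With a replicate block, Malat1 passed between the arms (-1.82, adjusted p = 0.0357, edgeR), and genes passing numbered 1 for the knockdown and 9 between the arms, with 3 transcripts for the knockdown and 29 between the controls. The cause of these and the following changes was not tested.

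In counts of genes passing (0 for the knockdown, 20 for overexpression, 4 between the arms and 14 between the controls), the alternatives gave the following. With no filter on low counts they were 93, 111, 137 and 71, with DESeq2 183, 249, 209 and 69, and with counts rebuilt from TPM and length, chosen after seeing the data, 8, 63, 79 and 74. Limma voom gave 2, 37 and 1 in the first 3, and the 6 libraries of the arm alone gave 6 for overexpression. DESeq2 size factors, scaling without members and mitochondrial genes, and a filter of 50 counts each gave 2 between the arms. Leaving out 1 library gave 0 to 2 for the knockdown, 14 to 35 for overexpression and 2 to 16 between the arms. For transcripts it gave 1 to 4, 12 to 38 and 3 to 16, and 10 to 32 between the controls. A pseudocount of 0.1 gave 9 and 8 transcripts for the knockdown and between the arms, and no filter 3 and 1. Scaling by library size alone moved the median of all genes from -0.03 to -0.22 for the knockdown and from -0.16 to -0.30 for overexpression.

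Tug1 and Six3os1 changed sign under several settings, and Miat between the arms when 1 library was left out. Tug1 was -0.046 for the knockdown with library size alone, and with rebuilt counts 0.37 for overexpression, 0.29 between the arms and 0.058 between the controls. Six3os1 was 0.039 for overexpression with limma voom, and with rebuilt counts 0.52 there and 0.10 between the arms. Leaving out 1 library moved Tug1 from -0.12 to 0.41 for the knockdown, -0.92 to 0.42 for overexpression and -1.08 to 0.26 between the arms. It moved Six3os1 from -1.13 to 1.36 for overexpression, -1.51 to 0.99 between the arms and -0.30 to 2.18 between the controls, Miat from -0.39 to 2.30 between the arms, and Malat1-203 from -0.061 to 0.59 for the knockdown and -0.34 to 0.17 between the controls. Differences in leading transcript share moved, in percentage points, from -25.5 to 22.5 for Neat1-201, -13.1 to 16.3 for Meg3-205, 0.0 to 40.8 for Miat-202 and -4.46 to 44.5 for Six3os1-206 for overexpression, and from -17.3 to 35.9 for Miat-202 and -7.11 to 16.3 for Six3os1-206 for the knockdown. Estimated counts were as low as 3.40 for Miat and 24.4 for Neat1 in 1 library.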
